A study of Mus musculus with 12 samples.

Results

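NF-kB is a family of transcription factors that act as dimers of 5 subunits, and the genes described here are those subunits, 4 genes of the IkB inhibitor family and Tnfaip3. The subunit genes are Nfkb1, Nfkb2, Rel, Rela and Relb, and the IkB genes are Nfkbia, Nfkbie, Nfkbid and Nfkbiz. They were chosen by gene name, 10 of the 41128 genes in the expression table, and each name matched 1 gene. All 10 passed the filter on low values that left 12520 genes for testing, which asked for 3 or more libraries with an adjusted TPM of 1 or more.

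Expression was measured by strand-specific RNA sequencing, after removal of ribosomal RNA, in splenic lymphocytes of C57BL/6J mice, 6 to 8 weeks old. Resting B cells had been depleted of cells carrying CD43, a surface protein of activated B cells and of most other leukocytes. Naive CD4+ T cells carried CD62L and had then been sorted as CD62L high, CD44 low and without CD25. Each of the 4 groups (female B cell, male B cell, female T cell, male T cell) had 3 libraries, numbered 1 to 3 in B cells and 4 to 6 in T cells, with no treatment and the same strain throughout. The series describes its replicates as pooled from mice, and the errors below therefore describe pools and not single animals.

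In a resting lymphocyte most NF-kB dimers are held in the cytoplasm by IkB proteins. In the canonical pathway, signals from antigen receptors or innate sensors activate the IkB kinase (IKK), which marks IkB for destruction and frees dimers that hold RelA or c-Rel. In the non-canonical pathway, receptors such as the BAFF receptor and CD40 of B cells lead to processing of p100, the product of Nfkb2, into p52, which acts with RelB. Several genes of the family are themselves NF-kB targets, among them Nfkbia, Tnfaip3, Nfkb2 and Relb. Resting B cells depend on BAFF for survival, and c-Rel and p50 are known for their part in the proliferation of activated B cells.

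Values are given as adjusted TPM, as the table names them. TPM is a length-corrected measure of transcript abundance, but the method of the adjustment is not given in the sources used here, so levels set side by side between genes rest on the assumption that it kept the correction for length. Totals of the adjusted TPM ran from 561020 to 1453940 per library, and 1 gene alone held 11.4% to 37.4% of a library's total. Read depth is not known from these values. For the 10 genes the deposited upper bound was 1.05 to 1.16 times the lower bound in B cells and 1.05 to 1.31 times in T cells. The B cell markers Cd79a, Cd79b, Ms4a1 and Pax5 summed to between 2220 and 2643 in the B cell libraries and between 0.896 and 4.91 in the T cell libraries. The 5 T cell markers (Cd3d, Cd3e, Cd4, Lck and Tcf7) summed to between 1017 and 1194 in T cells and between 9.76 and 14.1 in B cells, so the libraries bore out their cell type labels. The T cell libraries numbered 6 stood apart in both sexes. Regulatory T cell markers (Foxp3, Il2ra and Ikzf2) summed to 20.97 and 17.2 there, against 1.75 to 3.14 in the other 4 T cell libraries. Il2ra encodes CD25, which the sort selected against, and it reached 4.12 to 4.999 in the libraries numbered 6 against 0.158 to 0.340 in the others. Results were therefore also computed without these libraries.

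Because several members are NF-kB targets themselves, the start regions were searched for the NF-kB consensus, a 10-base motif. RefSeq promoter windows on GRCm38.p6 were given for 7 of the 10 genes, with several start sites for some. Within the 250 bases before each start, on both strands, the consensus occurred in 6 of these 7 genes (Nfkb2, Rel, Nfkbia, Nfkbie, Nfkbid and Tnfaip3) and was not found in the window of Rela. Of all 27025 genes with a window, 8.23% held it, as did 7.25% of all 32851 windows. Overlapping matches were merged, which gave 11 distinct matches. The matches below are shown because they lie in the genes with the widest differences between the cell types and in both feedback inhibitors. Each is written 5′ to 3′ on the strand of its gene, with the match in capitals.

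Rel (chr11:23771042-23771071, minus strand): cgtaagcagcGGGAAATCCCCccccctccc

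Nfkb2, first start (chr19:46304688-46304717, plus strand): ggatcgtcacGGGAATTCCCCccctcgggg

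Nfkb2, second start (chr19:46305449-46305478, plus strand): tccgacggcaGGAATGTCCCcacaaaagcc

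Nfkbie (chr17:45555584-45555613, plus strand): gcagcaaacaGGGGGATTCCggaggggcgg

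Nfkbid, outer match (chr7:30422170-30422199, plus strand): gccccgccctGGGACTTCCCagagcaccac

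Nfkbid, inner match (chr7:30422215-30422244, plus strand): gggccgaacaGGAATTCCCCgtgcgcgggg

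Nfkbia (chr12:55492657-55492686, minus strand): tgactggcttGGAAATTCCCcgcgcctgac

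Tnfaip3 (chr10:19015516-19015545, minus strand): gactcacgcgGGGACACCCCggggcgggac

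The match of Nfkbia was separated from its start by 19 bases and that of Rel by 81 bases. The 3 matches not shown included those closest to a start, 1 base away in Nfkb2 and 2 bases away in Tnfaip3. In the GENCODE annotation the matches of Rel, Nfkbia and Nfkbie lay outside the gene, and those of Nfkbid and Tnfaip3 in an intron of the gene. The first match shown for Nfkb2 lay in an exon and the second in an intron. A match describes letters in a window. Binding of NF-kB was not measured here.

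All 10 genes differed between resting B cells and naive T cells. In limma's test with Benjamini-Hochberg adjustment over all tested genes, 8 of the 10 were higher in B cells and 2, Nfkbiz and Tnfaip3, were higher in T cells. Such a call was common, since 73.0% of all tested genes passed the same threshold, 31.4% as higher in B cells and 41.6% as higher in T cells. By size, 5 of the 10 (Rel, Nfkb2, Nfkbie, Nfkbid and Relb) passed with an absolute log2 fold change of at least 1, against 21.6% of all tested genes, and all 5 were higher in B cells. The median log2 fold change was 0.73 over the 10 genes and -0.09 over all tested genes, and the median absolute log2 fold change was 0.99 against 0.40. The 6 B cell and 6 T cell libraries did not overlap for 8 of the 10 genes, against 53.9% of all tested genes. Nfkbia and Nfkbiz were the exceptions. In bulk RNA a larger number of cells that express a gene and more of its RNA per cell cannot be told apart.

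**Figure D1:**
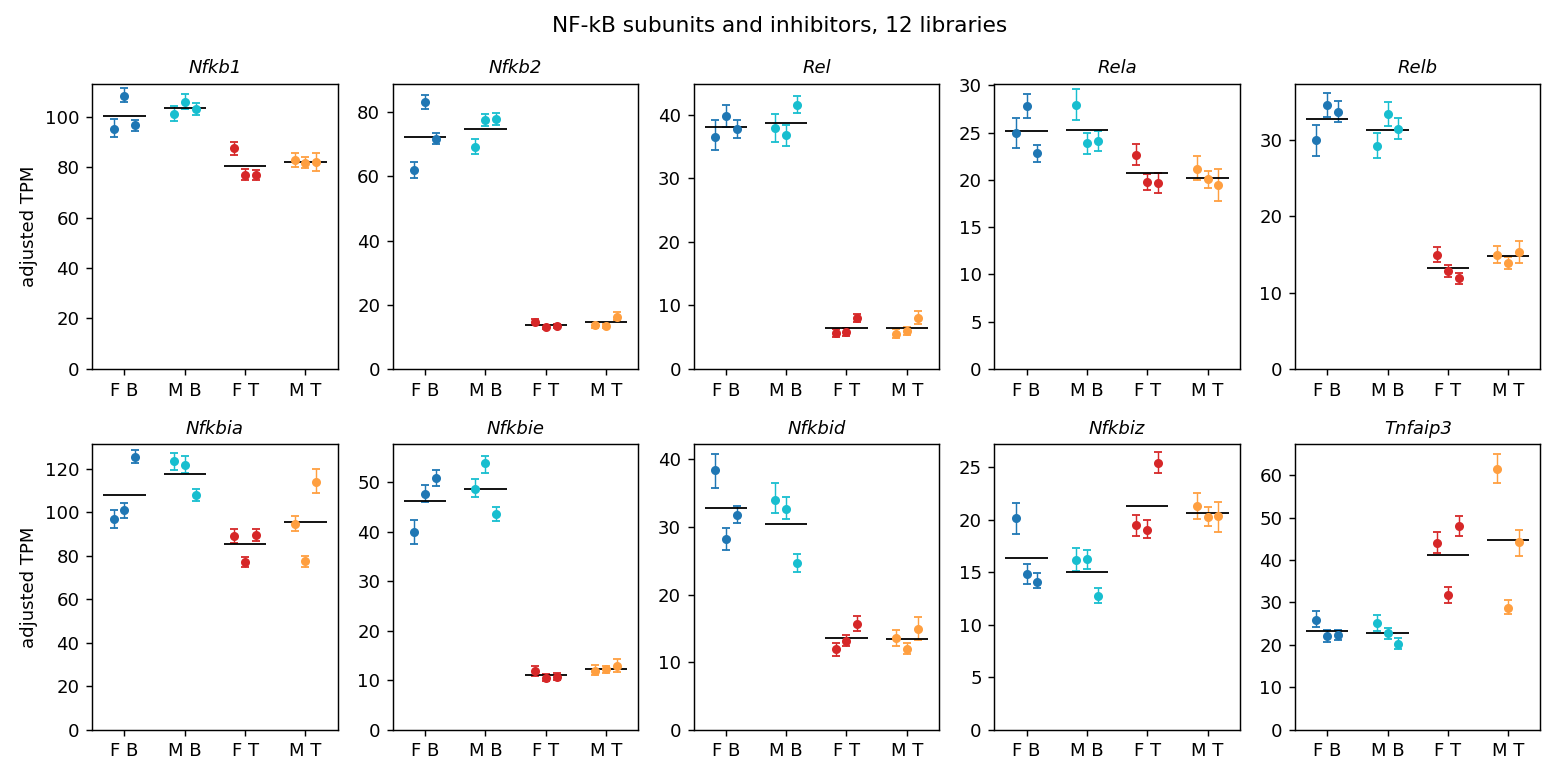
Adjusted TPM of each gene in the 12 libraries, by sex (F, female and M, male) and cell type (B and T), with the deposited lower and upper bounds as bars and the mean of the 3 libraries as a line. The axes start at 0, and Rel, Nfkb2, Nfkbie, Nfkbid and Relb show the widest gaps between B and T cells, while Tnfaip3 is higher in every T cell library.

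Among the subunits, Rel and Nfkb2 differed most. Rel (chromosome 11, 23736847 to 23770970, minus strand, GRCm38) encodes c-Rel, the subunit most restricted to lymphoid and myeloid cells. Its adjusted TPM was 36.6, 39.8 and 37.8 in female B cells and 37.9, 36.8 and 41.5 in male B cells. In T cells it was 5.65, 5.88 and 7.99 in females and 5.56, 5.95 and 8.04 in males. The lowest B cell library was thus far above the highest T cell library, and in each sex the T cell library numbered 6 was the highest of its group. The mean was 5.89 times higher in B cells, with a log2 fold change of 2.40 ± 0.093 (SE, n = 6 and 6, limma adjusted p = 7.1e-11). Of all tested genes, 93.4% had a smaller absolute log2 fold change.

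Nfkb2 (chromosome 19, 46304320 to 46312385, plus strand) encodes p100, which serves both as an inhibitor and as the precursor of p52. Female B cell libraries had 62.1, 83.2 and 71.8 adjusted TPM and male ones 69.3, 77.5 and 77.8. Female T cell libraries had 14.6, 13 and 13.3, and male ones 13.7, 13.4 and 16.3. B cell libraries varied more among themselves than T cell libraries in absolute terms, but the groups were far apart. The ratio of the means was 5.24, and the log2 fold change was 2.31 ± 0.077 (SE, n = 6 and 6, limma adjusted p = 1.43e-11).

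Relb (chromosome 7, 19606217 to 19629438, minus strand) encodes the partner of p52 in the non-canonical pathway. It had 30, 34.6 and 33.7 adjusted TPM in female B cells and 29.2, 33.5 and 31.5 in male B cells, against 15.0, 12.9 and 11.9 in female T cells and 15.0, 13.9 and 15.3 in male T cells. No T cell library came near the lowest B cell library. The mean was 2.29 times higher in B cells, a log2 fold change of 1.14 ± 0.065 (SE, limma adjusted p = 4.07e-09).

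Nfkb1 and Rela, whose products p50 and RelA form the most widely expressed NF-kB dimer, differed little. Nfkb1 (chromosome 3, 135584655 to 135691547, minus strand) ranged from 95.3 to 108.3 adjusted TPM over the 6 B cell libraries, with a median of 102.0, and from 76.95 to 87.4 over the 6 T cell libraries, with a median of 81.9. Rela (chromosome 19, 5637483 to 5648130, plus strand) ranged from 22.8 to 27.9 in B cells and from 19.4 to 22.6 in T cells, so its nearest libraries were almost touching. The means were 1.25 and 1.23 times higher in B cells. The log2 fold changes were 0.32 ± 0.053 for Nfkb1 (limma adjusted p = 0.000141) and 0.29 ± 0.065 for Rela (limma adjusted p = 0.00148). Both were smaller than the median absolute change of all tested genes.

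The make-up of the subunit transcripts within each library was compared next, since a ratio within a library does not depend on the scaling between libraries. Nfkb1 held 37.5% ± 0.718 (SD, n = 6) of the summed adjusted TPM of the 5 subunits in B cells and 59.7% ± 0.833 in T cells. Nfkb2 held 27.1% ± 1.32 in B cells against 10.3% ± 0.632 in T cells. The share of Rel was 14.2% ± 0.661 against 4.79% ± 0.923. Rela went the other way, with 9.33% ± 0.808 in B cells and 15.0% ± 0.662 in T cells. The levels of Nfkb1 and Rela were themselves slightly higher in B cells. Their shares were lower there because the other subunits raised the sum by more. Relb held nearly the same share, 11.8% ± 0.636 and 10.3% ± 0.627, yet its lowest B cell share of 11% stood just above its highest T cell share of 10.85%. For each of the 5 shares the 6 B cell and 6 T cell libraries did not overlap, and the exact two-sided permutation test gave its smallest possible p of 0.00217, which adjustment over the 8 ratios left at 0.00217. The 5 shares of a library sum to the whole and are not independent of each other. The permutation test also takes all libraries as independent. T cell libraries of the same number varied together across the sexes, as given below, so this p may be too small. The same limit holds for the other ratios.

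**Figure D2:**
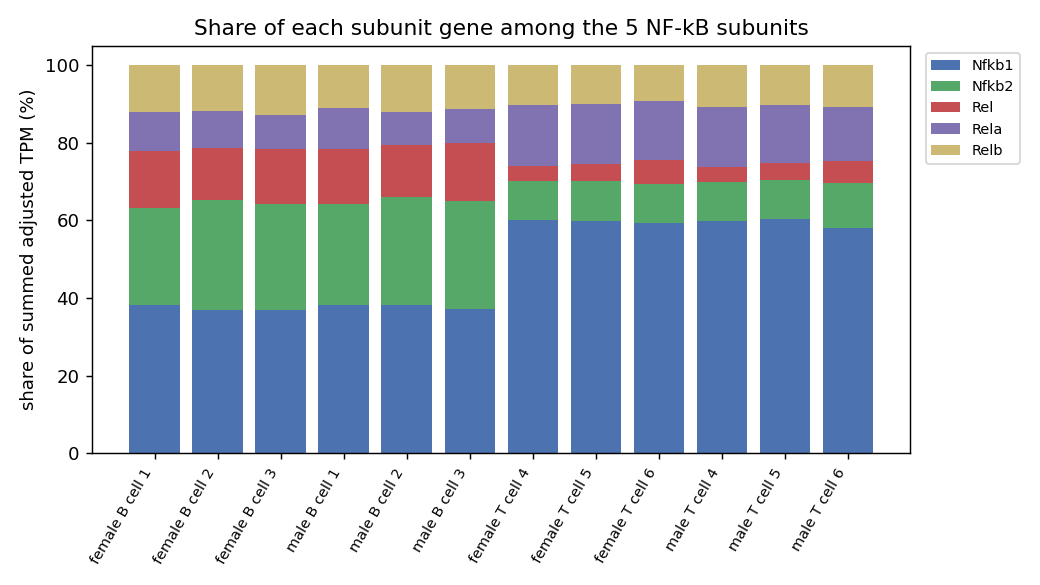
Share of each of the 5 subunit genes in their summed adjusted TPM, in percent, for each of the 12 libraries. Nfkb1 takes 36.8% to 38.3% in B cells and 58.2% to 60.5% in T cells, while the shares of Nfkb2 and Rel are larger in every B cell library than in any T cell library.

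The ratio of Rel to Rela, both of which encode subunits with a transactivation domain, was 1.53 ± 0.139 (SD, n = 6) in B cells and 0.321 ± 0.0714 in T cells. Rel was the more abundant of the pair in every B cell library (1.36 to 1.72) and the less abundant in every T cell library (0.250 to 0.414). The log2 ratio differed by 2.28 ± 0.14 (SE, exact permutation p = 0.00217). Both T cell libraries numbered 6 had the highest ratios among T cells, 0.406 and 0.414, and without them the difference was 2.47. Transcripts of the non-canonical pair, Nfkb2 and Relb, summed to 0.639 ± 0.0397 of those of Nfkb1, Rela and Rel in B cells and to 0.259 ± 0.0163 in T cells, a log2 difference of 1.30 ± 0.052 (SE, exact permutation p = 0.00217).

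The classical IkB inhibitors Nfkbia and Nfkbie behaved unlike each other. Nfkbie (chromosome 17, 45555703 to 45563169, plus strand) encodes IkB epsilon, which holds c-Rel and RelA dimers in the cytoplasm. Its adjusted TPM was 39.97, 47.7 and 50.95 in female B cells and 48.7, 53.8 and 43.6 in male B cells, against 11.9, 10.5 and 10.7 in female T cells and 11.9, 12.2 and 12.9 in male T cells. T cell libraries lay within a narrow band, and every B cell library was far above it. The ratio of means was 4.06, and the log2 fold change was 1.93 ± 0.071 (SE, limma adjusted p = 4.11e-11).

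Nfkbia (chromosome 12, 55489410 to 55492647, minus strand) encodes IkB alpha, which NF-kB induces and which ends its own activation. It had 96.96, 101.0 and 125.4 adjusted TPM in female B cells and 123.6, 122.0 and 107.9 in male B cells, and 89.2, 77.4 and 89.7 in female T cells and 94.7, 77.4 and 114.2 in male T cells. The T cell library of males numbered 6 lay above 3 of the 6 B cell libraries, so the groups overlapped. The mean was 1.25 times higher in B cells, with a log2 fold change of 0.32 ± 0.097 (SE, limma adjusted p = 0.00989). Without both T cell libraries numbered 6 it was 0.41 (adjusted p = 0.00291).

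Nfkbid and Nfkbiz encode nuclear IkB proteins, which act on chromatin with p50 or p52 rather than in the cytoplasm, and they moved in opposite directions. Nfkbid (chromosome 7, 30421732 to 30428746, plus strand), which encodes IkBNS, a protein needed for B-1 cells and antibody responses, had 38.4, 28.2 and 31.8 adjusted TPM in female B cells and 34.0, 32.7 and 24.6 in male B cells. In T cells it had 11.9, 13.2 and 15.7 in females and 13.5, 12.01 and 14.9 in males. The highest T cell libraries were again those numbered 6, and they remained below all B cell libraries. The mean was 2.33 times higher in B cells, with a log2 fold change of 1.16 ± 0.10 (SE, limma adjusted p = 3.73e-07).

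Nfkbiz (chromosome 16, 55811375 to 55838899, minus strand) encodes IkB zeta, an inducible co-activator of secondary NF-kB targets. It had 20.1, 14.9 and 14.1 adjusted TPM in female B cells and 16.1, 16.2 and 12.8 in male B cells, against 19.5, 19.1 and 25.5 in female T cells and 21.3, 20.2 and 20.3 in male T cells. The first female B cell library lay within the T cell range, and the other 5 lay below it. The mean was 1.34 times higher in T cells, with a log2 fold change of -0.40 ± 0.10 (SE, limma adjusted p = 0.0029). This was the one member whose call depended on the scaling. After all libraries were brought to the same total of 1000000, its log2 fold change was -0.04 and the adjusted p was 0.866.

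Tnfaip3 (chromosome 10, 19000910 to 19015657, minus strand) encodes A20, a ubiquitin-editing enzyme that NF-kB induces and that shuts off signalling upstream of IKK. It had 25.8, 21.99 and 22.2 adjusted TPM in female B cells and 25.1, 22.8 and 20.3 in male B cells, against 44.0, 31.8 and 48.0 in female T cells and 61.4, 28.8 and 44.2 in male T cells. All T cell libraries were higher than all B cell libraries, and they differed more among themselves, with both libraries numbered 5 the lowest of their group. The mean was 1.87 times higher in T cells, and the log2 fold change was -0.83 ± 0.16 (SE, limma adjusted p = 0.000357).

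The ratio of the 4 IkB genes to the 5 subunit genes was also compared. It is no full balance of inhibition. Nfkbiz, counted with the IkB genes, encodes a co-activator, and Nfkb2, counted with the subunits, encodes p100, which also inhibits. Nfkbib and Bcl3, described below, were left out. Summed adjusted TPM of the 4 IkB genes was 0.769 ± 0.0825 (SD, n = 6) of that of the 5 subunits in B cells and 1.00 ± 0.103 in T cells. The ranges, 0.653 to 0.846 and 0.902 to 1.15, did not overlap, and the log2 ratio was lower in B cells by 0.38 ± 0.088 (SE, log2 difference -0.38, exact permutation p = 0.00217). Nfkbia, the most abundant IkB gene in both cell types, weighs most in this sum. Without both T cell libraries numbered 6 the difference was -0.30.

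Because the totals differed between libraries, the B against T cell comparison was repeated under other scalings. Over all tested genes the median log2 fold change was -0.09 with the values as deposited, -0.01 with median-ratio scaling, -0.08 with quantile normalization and 0.25 with equal totals. Among all calls, 43.0% were higher in B cells as deposited, 50.1% with median-ratio scaling, 42.4% with quantile normalization and 70.8% with equal totals. All 10 members kept their direction under each. With equal totals the log2 fold change was 0.70 for Nfkb1, 0.66 for Rela and 0.70 for Nfkbia. Relative to the median of all genes, Rel was 2.49 higher in B cells as deposited and 2.53 with equal totals, Tnfaip3 -0.75 and -0.72, and Nfkbiz -0.31 and -0.30.

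**Figure D3:**
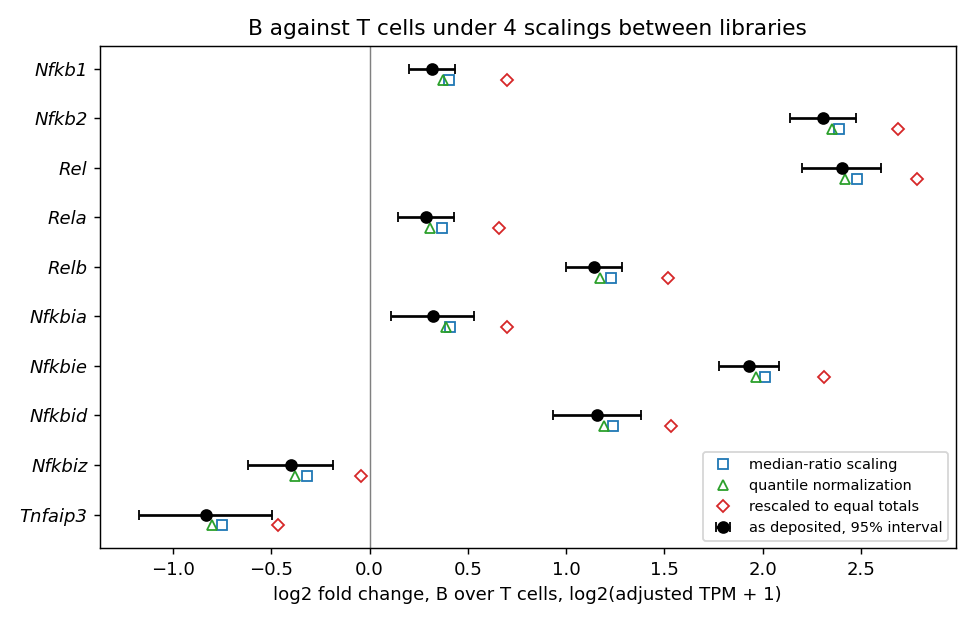
Log2 fold change of B over T cells on the log2(adjusted TPM + 1) scale for each gene, as deposited with its 95% interval (black) and under 3 other scalings (open symbols). Equal totals move all 10 genes towards B cells together, and only Nfkbiz comes to -0.04, next to the zero line.

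The order of the levels differed between the cell types. In B cells the most abundant was Nfkbia (112.8 ± 12.4, mean adjusted TPM ± SD, n = 6), followed by Nfkb1 (101.7 ± 5.08), Nfkb2 (73.6 ± 7.49), Nfkbie (47.4 ± 5.002), Rel (38.4 ± 1.91), Relb (32.1 ± 2.19), Nfkbid (31.6 ± 4.76), Rela (25.3 ± 2.15), Tnfaip3 (23.0 ± 2.07) and Nfkbiz (15.7 ± 2.53). Neighbours in this order whose ranges overlapped were Nfkbia and Nfkb1, Nfkbie and Rel, Relb and Nfkbid, Nfkbid and Rela, and Rela and Tnfaip3. In T cells Nfkbia (90.4 ± 13.6) and Nfkb1 (81.4 ± 3.93) again led, and Tnfaip3 (43.0 ± 11.8) came next. They were followed by Nfkbiz (20.98 ± 2.33), Rela (20.5 ± 1.21), Nfkb2 (14.1 ± 1.24), Relb (14.0 ± 1.38), Nfkbid (13.6 ± 1.54), Nfkbie (11.7 ± 0.929) and Rel (6.51 ± 1.17). The ranges of Nfkb2, Relb, Nfkbid and Nfkbie overlapped each with the next, as did those of Nfkbia and Nfkb1 and those of Nfkbiz and Rela. Rel was thus the lowest of the 10 genes in T cells and the fifth in B cells.

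No difference between the sexes was found for any of the 10 genes. None of the 10 passed the threshold in B cells, in T cells or in the test of the difference between both sex effects, and none had an unadjusted limma p under 0.05 in any of these. The smallest unadjusted limma p was 0.35 in B cells (Nfkbia), 0.131 in T cells (Relb) and 0.133 for the difference of the effects (Relb). Over all tested genes 0.144% passed in B cells, 0.104% in T cells and 0.0% for the difference, where 295 genes had an unadjusted p under 0.05. The log2 difference of females from males lay between -0.13 and 0.11 over the 10 genes in B cells and between -0.15 and 0.03 in T cells. The 95% intervals of the single genes reached from -0.44 to 0.52 in B cells and from -0.55 to 0.41 in T cells, both ends set by Tnfaip3. The fit took 1 spread per gene over all 4 groups. For Tnfaip3 the SD was 27.4% of the mean in T cells and 8.97% in B cells. Its interval in B cells thus also carries the spread of the T cell libraries. The intervals of other genes were narrower, such as -0.21 to 0.12 for Nfkb1 in B cells and -0.35 to 0.05 for Relb in T cells.

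Several inhibitor genes are, like the immediate early genes, quickly induced when a cell is stimulated. The 5 inhibitor genes were therefore compared with the mean log2 level of 10 immediate early genes (Fos, Jun, Egr1 and 7 others) across the 6 libraries of each cell type, 10 relations in all. In B cells this mean ranged from 4.22 in the male library numbered 3 to 5.76 in the female library numbered 1, and Fos, the best known of these genes, ranged from 16.6 to 173.6 adjusted TPM. Tnfaip3 followed it (Pearson r = 0.948, exact permutation p = 0.00278, adjusted p = 0.0278), as did Nfkbiz (r = 0.950, exact p = 0.0111, adjusted p = 0.037) and Nfkbid (r = 0.948, exact p = 0.00972, adjusted p = 0.037). Spearman's rho was 0.943 for each of these 3 genes (exact permutation p = 0.0167, adjusted p = 0.0556). Without the 2 libraries farthest from the median, those just named, r was 0.888 for Tnfaip3, 0.931 for Nfkbiz and 0.624 for Nfkbid over 4 libraries. The relation of Nfkbid thus rested in part on these 2 libraries.

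Nfkbia and Nfkbie did not follow the immediate early genes in B cells, with r = -0.145 (rho -0.314, exact permutation p = 0.785 and 0.564) and r = -0.121 (rho -0.143, exact permutation p = 0.832 and 0.803). In T cells none of the 5 relations passed. There r was -0.776 for Nfkbid (rho -0.60, exact permutation p = 0.0792 and 0.242, adjusted p = 0.198 and 0.604) and lay between -0.481 and 0.0646 for the other 4 genes, among them Nfkbia (-0.481) and Tnfaip3 (0.0646). Both T cell libraries numbered 6 had the lowest immediate early levels of the T cells, 4.78 and 4.64 against 5.32 to 5.69, so the 6 libraries formed 2 sets and the pooled values describe the gap between them. Over the other 4 T cell libraries r was 0.977 for Tnfaip3, 1.0 for Nfkbia, 0.602 for Nfkbiz, 0.428 for Nfkbie and 0.259 for Nfkbid, given as a description with no test. These 4 libraries again formed 2 sets. The immediate early level was 5.58 and 5.69 in those numbered 4 and 5.32 and 5.33 in those numbered 5. Each of these r thus describes mostly the gap between 2 numbers and not a relation over 4 independent libraries. Whether the relations differ between B and T cells was not tested. With 3 libraries per group the relation could not be tested within a sex.

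**Figure D4:**
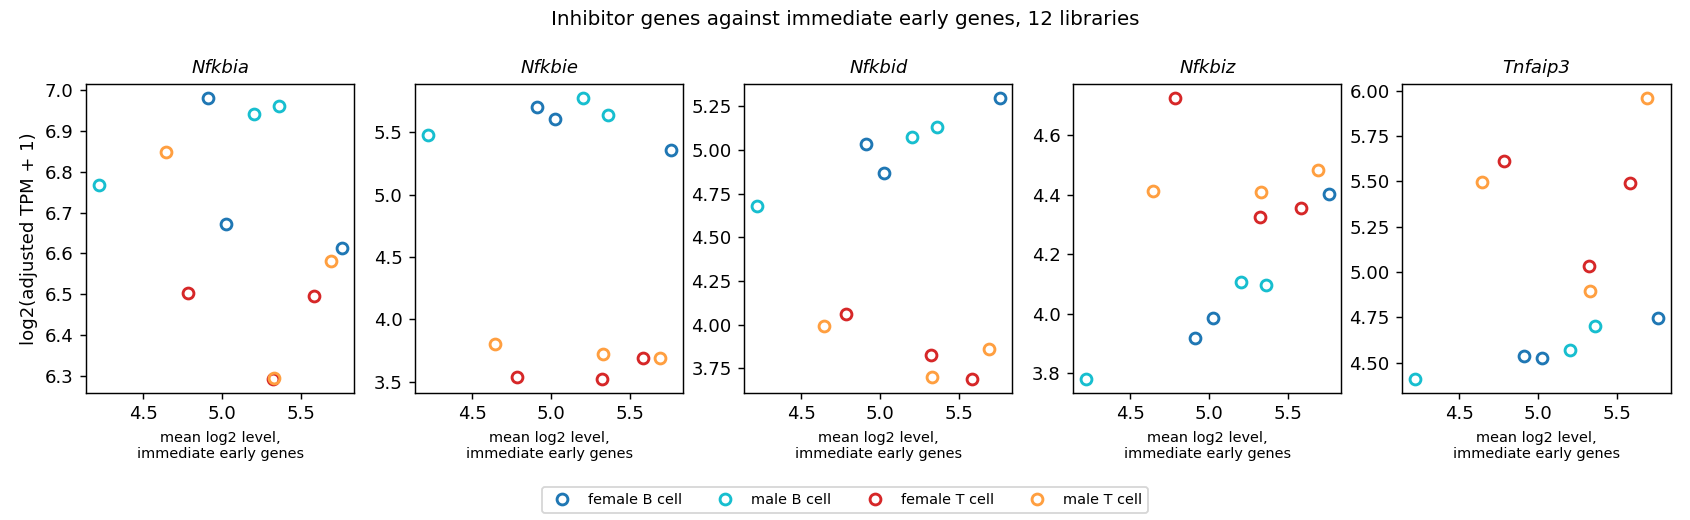
Log2(adjusted TPM + 1) of each of the 5 inhibitor genes against the mean log2 level of the immediate early genes, 1 open circle per library, coloured by group, with a separate vertical scale for each gene. In B cells Nfkbid, Nfkbiz and Tnfaip3 are higher where the immediate early genes are higher (r = 0.948, 0.950 and 0.948), and Nfkbia and Nfkbie show no such slope.

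The T cell libraries numbered 6 differed from the other 4 in Rel, which was 7.99 and 8.04 adjusted TPM there against 5.56 to 5.95, and in Nfkbid, with 14.9 to 15.7 against 11.9 to 13.5. For Rela the values were almost touching, 19.4 to 19.7 against 19.8 to 22.6. Its deposited bounds overlapped, such as 18.65 to 20.72 in female library 6 and 18.91 to 20.68 in female library 5. Those of Nfkbid did as well, with 13.31 to 16.7 in male library 6 and 12.35 to 14.72 in male library 4. The other 7 genes overlapped between both sets. The share of all tested genes that separate these 2 libraries from the other 4 was not computed, so the count is a description. The regulatory T cell markers moved with these libraries, as given above, with Foxp3 at 1.82 to 2.57 against 0.440 to 0.735 and Ikzf2 at 11.3 to 13.4 against 1.07 to 2.07. B cell markers summed to 4.91 and 2.43 there and to 0.896 to 1.82 in the other T cell libraries. The part of these cells in the levels of Rel and Nfkbid was not tested. Leaving both libraries out moved the log2 fold change of Rel between B and T cells from 2.40 to 2.54 and that of Nfkbid from 1.16 to 1.25, and all 10 genes still passed the threshold.

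Markers of other cells also differed between the cell types. Myeloid markers (6 genes) summed to 10.5 to 15.0 in B cells and 2.67 to 5.87 in T cells, plasma cell markers to 6.03 to 7.67 and 1.32 to 1.96 (2 of the 3 listed genes were in the table), and NK cell markers to 0.214 to 0.788 and 0.00794 to 0.0552. Most of the myeloid sum in B cells was Lyz2, with a mean of 8.89 there against 0.795 in T cells. Only 3 of the 6 myeloid genes passed the filter on low values. Of these, Cd68 was also higher in B cells (log2 fold change 0.48), and Itgam did not pass the threshold (-0.098, limma adjusted p = 0.322). Erythroid markers ranged from 0.902 to 304.0 in B cells and from 2.14 to 64.8 in T cells. Of the listed markers named by size of change, Lyz2 of the myeloid list (log2 fold change 2.61) and Sdc1 of the plasma cell list (2.83) were higher in B cells, while Prdm1, the other plasma cell marker tested, was higher in T cells (-0.67), and Ikzf2 of the regulatory T cell list (-2.10) was higher in T cells. Their part in the values of the NF-kB genes was not tested.

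The rest of the pathway was described from lists of 51 genes, of which 47 were tested. Of these 47 genes, 23 were higher in B cells, 11 were higher in T cells and 13 did not pass the threshold, with a median log2 fold change of 0.21. Over all tested genes 73.0% passed, 31.4% as higher in B cells and 41.6% as higher in T cells. Of the 15 genes past the threshold with an absolute log2 fold change of at least 1, 10 were higher in B cells and 5 in T cells. The same criterion was met by 21.6% of all tested genes.

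Of 10 IKK genes and activators, 2 were higher in B cells, 2 in T cells and 6 did not pass, where 73.0% of all tested genes passed. The one with a change of at least 1 was Ikbke, which encodes the IKK-related kinase IKK epsilon, at 4.61 ± 0.816 adjusted TPM in B cells (mean ± SD, n = 6) and 100.8 ± 7.70 in T cells (log2 fold change -4.19, limma adjusted p = 2.44e-13). Chuk and Ikbkb, which encode the catalytic IKK subunits, were slightly higher in B cells, by 0.29 and 0.19 on the log2 scale (limma adjusted p = 6.35e-05 and 0.0253), and Tab1, which encodes a partner of the IKK activator TAK1, had the higher level in T cells (log2 fold change -0.68, limma adjusted p = 0.000611).

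Antigen receptors signal to IKK through kinases of the protein kinase C family and the proteins BCL10 and MALT1. All 4 genes of this list passed, 3 as higher in B cells and 1 in T cells, where 73.0% of all tested genes passed. The kinase genes went in opposite directions, with Prkcb, of the B cell receptor pathway, at 186.1 ± 14.4 in B cells and 48.1 ± 4.44 in T cells (log2 fold change 1.93) and Prkcq, of the T cell receptor pathway, at 0.234 ± 0.0862 and 174.8 ± 6.30 (log2 fold change -7.16). Malt1, which encodes a protease, was at 83.7 ± 2.05 in B cells and 40.9 ± 1.74 in T cells (log2 fold change 1.02). The adjusted TPM of Bcl10 was also higher in B cells, with a log2 fold change of 0.85.

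Of 11 ubiquitin ligases and adaptors, 5 were higher in B cells, 3 in T cells and 3 did not pass, where 73.0% of all tested genes passed. Birc3, which encodes the ligase cIAP2 and is an NF-kB target, was at 153.2 ± 14.8 in B cells and 48.9 ± 3.71 in T cells (log2 fold change 1.63). Traf3, the brake of the non-canonical pathway, was higher in B cells by 0.89. Of 8 partners of A20 and other deubiquitinases, 5 were higher in B cells, 2 in T cells and 1 did not pass. The same 73.0% of all tested genes stands beside this count. Otud7b, which encodes a deubiquitinase of TRAF3, was at 19.2 ± 1.04 and 7.61 ± 0.537 (log2 fold change 1.23). Tnip1, which encodes a partner of A20, had the higher level in T cells (log2 fold change -0.58), as A20's own gene did, and so did Cyld (-0.50). Other genes of this list went the opposite way. Tnip2, Itch and Tax1bp1 were higher in B cells, by 0.67, 0.27 and 0.21 on the log2 scale.

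Both further IkB family genes were higher in B cells, as were 31.4% of all tested genes. Bcl3, which encodes a nuclear partner of p50 and p52, was at 16.5 ± 2.52 in B cells and 6.51 ± 1.77 in T cells (log2 fold change 1.24), and Nfkbib, which encodes IkB beta, was at 11.9 ± 0.950 and 9.23 ± 1.07 (0.33).

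Of 16 known NF-kB target genes, 12 were tested, and 6 were higher in B cells, 3 in T cells and 3 did not pass. Over all tested genes 73.0% passed, 31.4% as higher in B cells and 41.6% as higher in T cells. Cd83, an activation marker of B cells and dendritic cells, was at 101.9 ± 14.97 in B cells and at 0.145 to 1.23 in T cells (log2 fold change 6.13), with both T cell libraries numbered 6 the highest of the T cells at 1.23 and 0.956. Irf4, a transcription factor of activated lymphocytes, was at 52.6 ± 4.85 and 1.37 ± 0.446 (4.52). Gadd45b, Icam1 and Zc3h12a were higher in B cells as well, by 1.71, 1.59 and 1.20 on the log2 scale. Ccnd2, Traf1 and Bcl2l1 were higher in T cells, with log2 fold changes of -1.64, -1.34 and -1.02. Both directions thus occurred in this list, as they did over all tested genes. Of the 10 immediate early genes, 9 were tested, with 1 higher in B cells (Zfp36, log2 fold change 1.05), 3 in T cells and 5 not past the threshold.

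**Figure D5:**
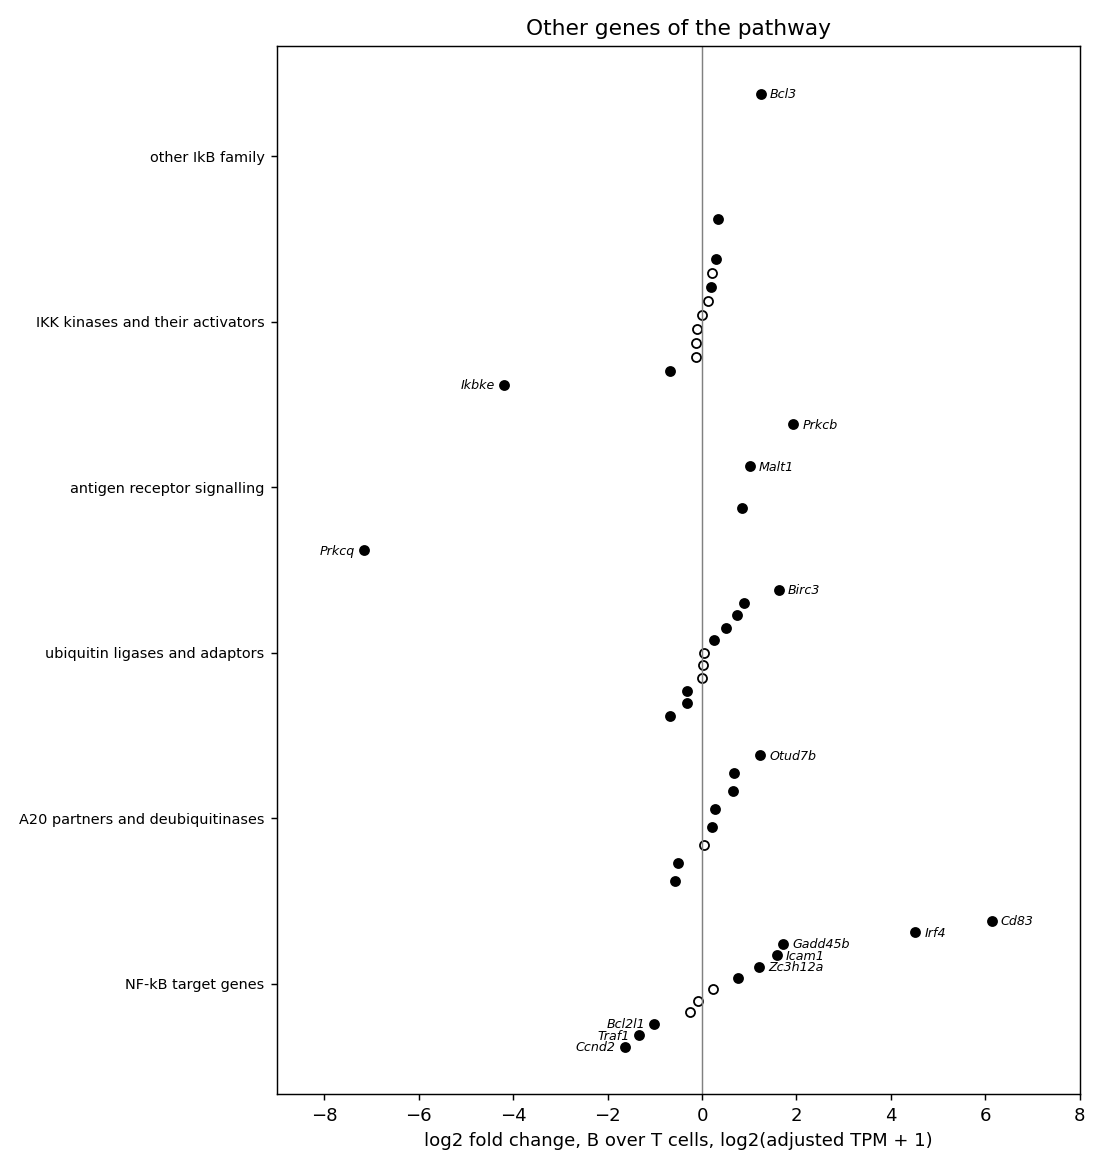
Log2 fold change of B over T cells on the log2(adjusted TPM + 1) scale for the 47 tested genes of 6 pathway lists, 1 point per gene and ordered by size within a list. Filled points passed the threshold (adjusted p under 0.05), open points did not, and the named genes are those past it with an absolute log2 fold change of at least 1, from -7.16 (Prkcq) to 6.13 (Cd83).

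Between the sexes none of the 47 pathway genes passed the threshold in B cells, in T cells or in the difference of both effects. Over all tested genes only 0.144%, 0.104% and 0.0% passed, so the count says little about these genes in particular. The smallest unadjusted limma p over these genes was 0.00861 in B cells, 0.0386 in T cells and 0.036 for the difference.

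The genes whose level followed a member most closely across the 12 libraries, after the mean of each group was taken off, were also listed, among tested genes with a mean adjusted TPM of at least 10. Those most like Rel were Ccdc50 (Pearson r = 0.981), Zfp871 (0.976) and Elk4 (0.967). Within the groups Rel varied mostly in T cells, where the libraries numbered 6 had 7.99 and 8.04 adjusted TPM against 5.56 to 5.95. These 3 values of r thus describe mainly the libraries numbered 6 against the other T cell libraries. Nfkbid was followed by Tagap (0.952), Clk1 (0.945) and Ptger4 (0.931), and Nfkb2 by Vmp1 (0.942), Tnfrsf18 (0.917) and Ppm1f (0.910). For Nfkbia they were Ctdsp2 (0.954), Ube2q2 (0.947) and Bnip2 (0.946), for Nfkbie Tfdp1 (0.936), Mcm7 (0.901) and Hist1h4b (0.897), and for Relb Polb (0.933), Gfm1 (0.932) and Dcun1d5 (0.925). Rela was followed by Ly6e (0.952), Rbms1 (0.938) and Mgrn1 (0.923), and Nfkb1 by Hyou1 (0.917), H13 (0.907) and Rpl35a-ps4 (0.906). Nfkbiz was followed by Wbp11 (0.965), Phf12 (0.919) and Ppfia1 (0.888), and Tnfaip3 by Eif3j1 (0.897), Dapl1 (0.875) and Josd1 (0.873). Tnfaip3, like Rel, varied mostly in T cells, with an SD of 27.4% of the mean there against 8.97% in B cells. Its values of r thus describe mainly the T cell libraries. Each r is the highest of many over 12 libraries that share their scaling, and it describes these libraries. Among the members themselves the highest r were those of Nfkbid with Nfkbiz (0.835), Nfkb1 with Relb (0.812), Nfkb2 with Relb (0.748) and Nfkb1 with Nfkb2 (0.708).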

How the data were processed

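The authors deposited 1 table with 3 columns per library, an adjusted TPM and its lower and upper bound. These signal values were made by the authors as a TPM with an adjustment of unknown method, and are no plain TPM, since only 1 library sums to 1000000. The submitters' processing notes name Trim Galore, FastQC, STAR and the build mm10. How the values were quantified, annotated and adjusted, and the level of the bounds, are not given in the sources used here. Some labels list the molecule as genomic DNA, although the series is RNA sequencing. The ERCC spikes were left out. The adjusted values may carry errors of the rescaling into all genes of a library.

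Groups came from the labels. The members and gene lists were chosen with earlier results of these data known. Values were analysed as log2(adjusted TPM + 1), which understates changes of low genes, for genes with at least 1 in at least 3 libraries. limma 3.58.1 (R 4.3.3), with a mean-variance trend and 1 coefficient per group over all 12 libraries, tested 4 contrasts, with Benjamini-Hochberg adjustment over 12520 genes and a threshold of 0.05. The script was tested on simulated data. Ratios and correlations were tested by exact two-sided permutation (Python 3.11.15, scipy 1.17.1), with adjustment over 8 ratios and 10 relations. Gene IDs were matched to GENCODE M21 for GRCm38, with 40250 (97.9%) matched. Promoter windows came from RefSeq.

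All members are named. Listed pathway, context and marker genes are named past the threshold with an absolute log2 fold change of at least 1. Some others were named after their values were seen (Chuk, Ikbkb, Bcl10, Traf3, Tab1, Prdm1, Tnip1, Cyld, Nfkbib, Tnip2, Tax1bp1, Itch, Cd68, Itgam). The 4 B cell and 5 T cell markers passed that rule. A listed pathway gene and a listed marker are not reported here.

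Labels give females and males the same numbers within a cell type. Deviations of same-numbered libraries from their group means correlated in T cells (r = 0.721, 0.548 and 0.521) and not in B cells (-0.169, -0.038 and -0.337), so the numbers pair the T cell libraries, on the evidence of the data. The reported fits and permutation tests did not use this pairing and treated all libraries as independent. Their errors and p-values between B and T cells may therefore be too small. B and T cell libraries share no number. The labels also carry a further digit, of unstated meaning, that differs between females and males within each cell type. Whatever it marks cannot be told apart from sex. Alternatives were the pseudocount, the filter, 3 scalings, no trend, the replicate block, 1 cell type only and each library left out. One was added after the data were seen, leaving out both T cell libraries numbered 6.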

Additional observations from a re-analysis of the deposited data

Results flagged for a closer look

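Nfkbiz in female T cell library 6 stood apart as the highest of the 6 T cell libraries, at 25.46 adjusted TPM against 19.05 to 21.3 in the other 5. The gap to the next library took up 0.643 of the whole range. This was 1 of 20 groups of 6 libraries examined (10 genes in 2 cell types), and chance sets about 1 in 20 such groups apart. The same library had the highest sum of regulatory T cell markers (20.97), and their part in this value was not tested.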

How the results depend on the processing

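Of the 210 values of single members under an alternative, 209 kept their direction and their side of the threshold. The exception was Nfkbiz with totals of 1000000, at -0.04 with an adjusted p of 0.866 (0.000458 to 0.866 over its 21 alternatives). All 86 counts of members and all 120 ratios stayed on the same side. Counts over all genes moved more. Without the filter 24591 genes passed between B and T cells, 10985 between the sexes in B cells, 10607 in T cells and 11201 for the difference between the sex effects. Of these only 2701, 17, 8 and 16 had an absolute log2 fold change of at least 1. With totals of 1000000, 36 genes passed between the sexes in B cells, 23 in T cells and 16 for the difference. Other counts for the difference, 0 in the reported fit, were 1 with a pseudocount of 0.1, 1 with quantile normalization, 3 without the trend and 3 without both T cell libraries numbered 6. It ranged from 0 to 3 with each library left out in turn, and was 3 without female T cell replicate 6. In B cells 5 genes passed with 1 cell type only, against 18, and in T cells 24 with a pseudocount of 0.1, against 13. The cause of these shifts was not tested.

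With the replicate block 9312 genes passed between B and T cells, 14 between the sexes in B cells, 10 in T cells and 0 for the difference, and no call of a member changed. The block takes the spread between numbers out of the error and leaves the estimate between B and T cells as it was. For Tnfaip3 the limma adjusted p between B and T cells thus fell from 0.000357 to 3.14e-05. The block therefore cannot show whether the pairing of T cell libraries makes the error of that comparison too small. In B cells same-numbered libraries share only a number.

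Without the 2 libraries farthest from the median, the correlation with the immediate early genes changed sign for Nfkbia in B cells (0.261) and, in T cells, for Nfkbia (1.0), Nfkbie (0.428), Nfkbid (0.259) and Nfkbiz (0.602), each over 4 libraries. None of these had passed the threshold over 6 libraries. That of Tnfaip3 in T cells kept its sign and moved from 0.0646 to 0.977. Depth is unknown, so the precision of single values rests on the deposited bounds, whose level is not given. With 3 libraries per group, what sex difference could be detected depended on the gene, with the widest interval for Tnfaip3.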
